A study of Mus musculus with 24 samples.

Results

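The genes described here, 10 in number, encode proteins that bring glucose into cells, break it down to pyruvate, convert pyruvate to lactate and back, and carry lactate across membranes. They are the glucose transporters Slc2a1 and Slc2a3, the hexokinase Hk2, the pyruvate kinase Pkm, the lactate dehydrogenase subunits Ldha and Ldhb, and the monocarboxylate transporters Slc16a1, Slc16a3, Slc16a7 and Slc16a8. They were taken by gene symbol and are 10 of the 28802 genes in the deposited table of retinal expression. All 10 were among the 16400 genes that had a mean of at least 0.5 cpm (a gene's reads divided by all reads of its library and scaled to a common library size) and were therefore tested.

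Photoreceptors are known for turning much of their glucose into lactate even when oxygen is plentiful, a habit called aerobic glycolysis. Hexokinase traps glucose in the cell by adding a phosphate, pyruvate kinase makes pyruvate in the last step of the pathway, and lactate dehydrogenase, a tetramer of A and B subunits, converts pyruvate and lactate into each other. Monocarboxylate transporters move lactate and pyruvate together with a proton, so that lactate made in one cell type can leave it, enter another, or pass through the pigment epithelium towards the blood.

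The 24 libraries were made from total RNA of wild-type mouse retina at postnatal day 28, with 3 libraries from each of 8 inbred strains. The study related retinal transcripts to several visual traits, of which only refraction, the focusing state of the eye, is used here. Refraction comes from separate mice, measured at a later age than the libraries, and gives 1 mean per strain. From the most myopic (nearsighted) to the most hyperopic (farsighted), the strains ran 129S1/Svlmj, NOD/ShiLtJ, A/J, C57BL/6J, NZO/HlLtJ, WSB/EiJ, PWK/PhJ and CAST/EiJ. The last 3, WSB/EiJ, PWK/PhJ and CAST/EiJ, descend from wild-caught mice.

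Each library held an estimated 57607000 to 78150000 reads, with a median of 68942500, taken from the steps between the lowest values, of which 89.0% to 90.95% in a library came within 0.05 of a whole number of reads at the estimated depth. At these depths 3 reads corresponded to 0.0384 to 0.0521 cpm, a limit that covers counting error only. Markers of Müller glia summed to 1018 cpm on average, those of cones to 262 cpm and those of ganglion cells to 258 cpm. The tissue label thus had defining transcripts of these cell types in every strain. Endothelial markers summed to 109.9 cpm, of which Kdr alone gave 72.4 cpm. Sums were lower for pigment epithelium and blood. Pigment epithelium markers summed to 34.2 cpm, of which Ttr gave 10.9 cpm while Best1 was under 0.1 cpm. Blood cell markers summed to 18.9 cpm, led by Hbb-bs at 9.90 cpm. Lens markers set 3 libraries apart. Their sum, led by Cryaa, was 1612 cpm in 129S1/Svlmj replicate 2, 1822 cpm in NOD/ShiLtJ replicate 2 and 213 cpm in C57BL/6J replicate 2, against 5.11 to 85.2 cpm in the other 21 libraries. The labels do not say whether the libraries of a strain came from separate animals, although the study's methods call them biological replicates, so the p-values of limma given below measure the spread between samples.

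Per kilobase of exon, the mean levels of the genes spanned from 113 cpm per kb for Pkm to 0.240 cpm per kb for Slc16a8. Ldha followed Pkm at 51.1 cpm per kb, then Slc16a1 at 19.4, Hk2 at 18.7, Ldhb at 12.3 and Slc2a1 at 9.55 cpm per kb. Slc2a3 stood at 3.63, Slc16a3 at 1.97 and Slc16a7 at 0.735 cpm per kb. On this scale Slc16a1 was the most abundant of the 4 lactate transporters, and Ldha exceeded Ldhb.

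The strains differed in all 10 genes, of which Slc16a8 met the filter only with WSB/EiJ, its highest strain, included. The limma F-test over the 8 strains called 10 of 10 at a Storey q-value (an estimated false discovery rate) under 0.01, against 97.2% of all genes tested. That rule was lenient, because the estimated share of genes without a difference was 0.0208 and genes with an unadjusted p of up to 0.466 passed. With Benjamini-Hochberg adjusted p under 0.01 the F-test called 70.6% of all genes and again 10 of 10, and the adjusted p-values quoted for it below are of this kind. With no filter on low values the F-test also called 10 by each of these rules. Ordered by mean, the highest and the lowest strain of each gene had library ranges that did not overlap for 10 of 10, as for 94.3% of all genes. Of the 70 steps between neighbouring strains in these orders, 13 separated the ranges of their libraries, beside 14.7% of such steps over all genes. The ratio of the highest to the lowest strain mean had a median of 1.68 over the 10 genes and 1.46 over all genes.

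Single strains were compared with the mean of the other 7 by limma contrasts, which share libraries with one another. A difference was called at q under 0.01 and at least 0.5 on the log2(cpm + 1) scale, and 7 of the 80 comparisons were called. Hk2 gave 4 of them, in A/J, NOD/ShiLtJ, CAST/EiJ and PWK/PhJ, where 4.04%, 4.09%, 10.4% and 10.2% of all genes were called. Ldha and Slc16a3 were called in WSB/EiJ, where the background was 5.11%, and Slc16a7 in CAST/EiJ. None of the 10 was called in 129S1/Svlmj, C57BL/6J or NZO/HlLtJ, where 3.98%, 4.09% and 4.13% of all genes were, although Ldhb passed in 129S1/Svlmj under some alternatives (0.51 with quantile normalization and with a pseudocount of 0.1, 0.52 without its replicate 1).

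**Figure D1:**
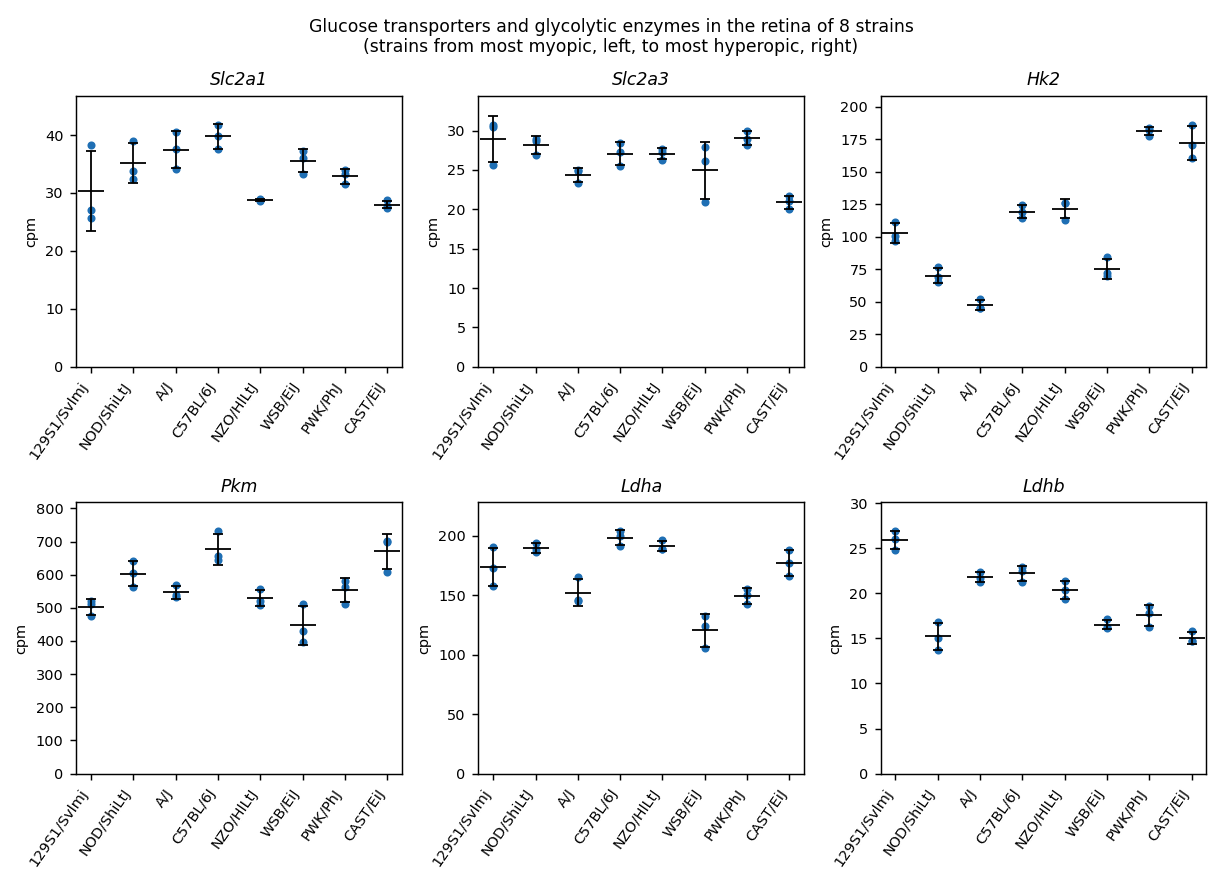
Levels in cpm of the glucose transporters, Hk2, Pkm and the lactate dehydrogenase subunits in each of the 24 libraries, with strains ordered from the most myopic to the most hyperopic; points are libraries and bars are the mean ± SD of 3. Hk2 spanned 47.6 cpm in A/J to 181 cpm in PWK/PhJ, while Slc2a1 and Slc2a3 changed by less than 1.5-fold between strain means.

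Slc2a1 encodes the main glucose carrier of the blood-retinal barrier and of photoreceptors, and Slc2a3 a carrier typical of neurons. Slc2a1 (GRCm38 chromosome 4, 119108711 to 119137983, plus strand) ranged from 28.0 ± 0.676 cpm (SD, n = 3) in CAST/EiJ to 39.7 ± 2.11 cpm in C57BL/6J, and no neighbouring strains in its order were apart. In 129S1/Svlmj its libraries held 25.6, 38.2 and 27.0 cpm, the highest being the one with lens transcripts. Such a library was also highest in NOD/ShiLtJ (39.0 cpm against 32.5 and 33.9 cpm) but not in C57BL/6J (39.9 cpm against 37.6 and 41.8 cpm). Slc2a3 (chromosome 6, 122727809 to 122801640, minus strand) was lowest in CAST/EiJ, where 19.99, 21.6 and 21.0 cpm lay below every library of the next strain, A/J, and highest in PWK/PhJ at 29.1 ± 0.890 cpm. The limma F-test gave adjusted p-values of 0.000476 for Slc2a1 and 0.000162 for Slc2a3, and neither passed the size limit in a single strain.

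Hk2 encodes a hexokinase that is enriched in photoreceptors, and it lies on chromosome 6 from 82725025 to 82774454 on the minus strand. Its libraries held 45.2, 45.2 and 52.4 cpm in A/J, 65.0, 69.3 and 76.5 cpm in NOD/ShiLtJ, 70.1, 72.0 and 84.5 cpm in WSB/EiJ, and 96.6, 101 and 111 cpm in 129S1/Svlmj. They held 114, 119 and 125 cpm in C57BL/6J, 113, 126 and 126 cpm in NZO/HlLtJ, 160.4, 171 and 186 cpm in CAST/EiJ, and 178, 182 and 184 cpm in PWK/PhJ. A/J stood alone at the bottom, NOD/ShiLtJ overlapped WSB/EiJ, C57BL/6J overlapped NZO/HlLtJ, and CAST/EiJ overlapped PWK/PhJ above all other strains, so that 4 of the 7 steps were apart. The highest strain mean was 3.81 times the lowest, a larger ratio than in 92.0% of all genes tested. The limma F-test gave an adjusted p of 2.4e-15.

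On the log2(cpm + 1) scale Hk2 differed from the mean of the other strains by -1.24 in A/J (limma q = 3.0e-14), -0.61 in NOD/ShiLtJ (q = 7.5e-09), 0.86 in CAST/EiJ (q = 5.5e-12) and 0.94 in PWK/PhJ (q = 1.1e-12). In WSB/EiJ the difference of -0.50 fell just short of the size limit, and it passed when any 1 of 8 libraries was left out: 129S1/Svlmj replicate 1, C57BL/6J replicate 1, NOD/ShiLtJ replicate 2, A/J replicate 2 or 3, WSB/EiJ replicate 3 (-0.58), NZO/HlLtJ replicate 1 or CAST/EiJ replicate 3. Hk1, the hexokinase most widely made in neurons, varied less, between 149 cpm (129S1/Svlmj) and 198 cpm (NOD/ShiLtJ). The log2 ratio of Hk2 to Hk1 within a library averaged -2.01 ± 0.0891 (SD, n = 3) in A/J and 0.03 ± 0.0328 in PWK/PhJ.

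Pkm encodes the pyruvate kinase of retina and most other adult tissues and lies on chromosome 9 from 59656368 to 59679375, plus strand. It was lowest in WSB/EiJ, with 398, 432 and 511 cpm, and highest in C57BL/6J, with 644, 655 and 730.4 cpm, and all neighbouring strains overlapped (limma F-test, adjusted p = 3.8e-06). Of its 31-base words, 25.5% also occur in other genes, so its level rests in part on how reads were shared out: with its close copy added, the ratio of the highest to the lowest strain mean moved from 1.51 to 1.65, and the highest strain became CAST/EiJ at 818 ± 63.0 cpm (SD, n = 3), against 757 ± 58.8 cpm in C57BL/6J.

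Ldha encodes the subunit known for making lactate from pyruvate (chromosome 7, 46841475 to 46855627, plus strand). Its libraries held 105, 124 and 132 cpm in WSB/EiJ, 143, 151 and 155 cpm in PWK/PhJ, and 191, 200.01 and 204 cpm in C57BL/6J, the highest strain. WSB/EiJ lay below every other strain without overlap, while each of the other steps overlapped. WSB/EiJ was lower than the mean of the other strains by a log2 difference of -0.54 (limma q = 1.4e-08). This call ended at -0.45 without WSB/EiJ replicate 2, and at -0.49 both with median-ratio scaling of libraries and with the values of its 5 close copies added.

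Ldhb encodes the subunit known for using lactate and lies on chromosome 6 from 142490249 to 142507957, minus strand. Its libraries held 24.8, 26.1 and 26.9 cpm in 129S1/Svlmj, 21.3, 22.5 and 22.9 cpm in C57BL/6J, 21.3, 21.7 and 22.3 cpm in A/J, and 19.4, 20.4 and 21.4 cpm in NZO/HlLtJ. They held 16.3, 17.8 and 18.6 cpm in PWK/PhJ, 16.2, 16.3 and 17.1 cpm in WSB/EiJ, 13.8, 15.0 and 16.8 cpm in NOD/ShiLtJ, and 14.7, 14.7 and 15.8 cpm in CAST/EiJ. The strains fell into 129S1/Svlmj on its own, a middle set of C57BL/6J, A/J and NZO/HlLtJ that overlapped in turn, and a low set of the remaining strains that also overlapped in turn. The limma F-test gave an adjusted p of 4.6e-10. Ldhb shares 14.3% of its 31-base words with Gm5514, whose mean level ranged from 4.08 cpm in A/J to 8.63 cpm in PWK/PhJ. With Gm5514 added, 129S1/Svlmj stayed the highest strain (30.96 cpm) and CAST/EiJ was the lowest (20.3 cpm), but PWK/PhJ (26.2 cpm) stood above A/J (25.8 cpm) and NZO/HlLtJ (24.7 cpm), with WSB/EiJ (24.1 cpm) next, so the split into a middle and a low set did not hold for the sum. The log2 ratio of Ldha to Ldhb averaged from 2.74 ± 0.165 (SD, n = 3) in 129S1/Svlmj to 3.65 ± 0.126 in NOD/ShiLtJ.

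**Figure D2:**
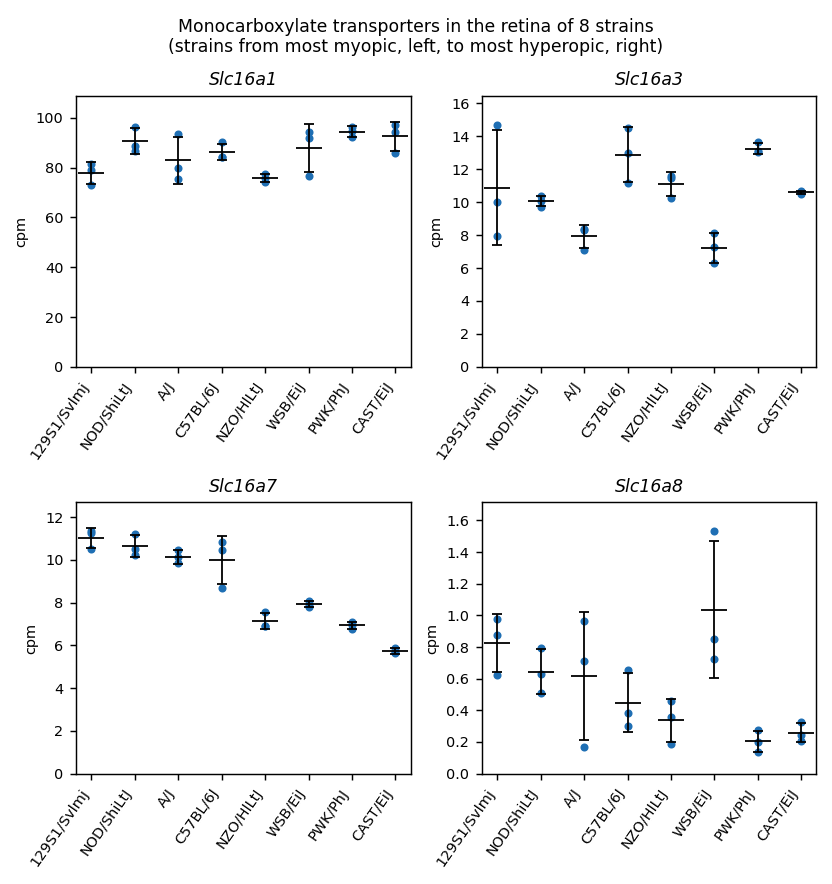
Levels in cpm of the monocarboxylate transporters in each of the 24 libraries, with strains ordered from the most myopic to the most hyperopic; points are libraries and bars are the mean ± SD of 3. Slc16a7 had strain means of 11.03 cpm at the myopic end (129S1/Svlmj) and 5.74 cpm at the hyperopic end (CAST/EiJ), and Slc16a1 stayed between strain means of 75.9 and 94.5 cpm.

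Slc16a1 encodes the broadly made lactate carrier MCT1 and lies on chromosome 3 from 104638668 to 104658462, plus strand. Its strain means ran from 75.9 ± 1.55 cpm (SD, n = 3) in NZO/HlLtJ to 94.5 ± 2.18 cpm in PWK/PhJ, a ratio of 1.25 that was larger than in 19.97% of all genes, and all neighbours overlapped. The limma F-test gave an adjusted p of 0.00381, which rose to 0.0122 without NZO/HlLtJ replicate 2. Slc16a3, which encodes the low-affinity exporter MCT4 of strongly glycolytic cells (chromosome 11, 120948480 to 120960868, plus strand), was lowest in WSB/EiJ with 6.28, 7.29 and 8.11 cpm and highest in PWK/PhJ with 13.1, 13.1 and 13.6 cpm. WSB/EiJ and A/J overlapped each other and lay below NOD/ShiLtJ and CAST/EiJ. In 129S1/Svlmj the values were 7.93, 10.02 and 14.7 cpm, the last in the library with lens transcripts. Such a library lay between the others in NOD/ShiLtJ (10.1 cpm against 9.73 and 10.4 cpm) and in C57BL/6J (13.0 cpm against 11.1 and 14.5 cpm). The WSB/EiJ difference of -0.52 (limma q = 6.0e-05) ended as a call at -0.49 both without 129S1/Svlmj replicate 2 and without the 3 libraries with lens transcripts, at -0.48 with median-ratio scaling or quantile normalization, and at -0.44 without WSB/EiJ replicate 2.

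Slc16a7 encodes MCT2, the carrier with high affinity for pyruvate and lactate, and lies on chromosome 10 from 125219270 to 125389465, minus strand. Its libraries held 10.5, 11.2 and 11.3 cpm in 129S1/Svlmj, 10.2, 10.5 and 11.2 cpm in NOD/ShiLtJ, 9.84, 10.1 and 10.5 cpm in A/J, and 8.70, 10.4 and 10.8 cpm in C57BL/6J. They held 6.90, 6.93 and 7.58 cpm in NZO/HlLtJ, 7.79, 7.90 and 8.09 cpm in WSB/EiJ, 6.76, 6.97 and 7.10 cpm in PWK/PhJ, and 5.65, 5.68 and 5.89 cpm in CAST/EiJ. In the order of its strain means 3 of the 7 steps were apart, beside 14.7% of such steps over all genes. They were CAST/EiJ below PWK/PhJ, NZO/HlLtJ below WSB/EiJ, and WSB/EiJ below C57BL/6J. The last of these parted the libraries of the 4 more hyperopic strains from those of the 4 more myopic ones. The share of all genes with such a split was not counted. The limma F-test gave an adjusted p of 6.5e-11, and CAST/EiJ differed from the mean of the other strains by -0.57 on the log2 scale (q = 2.0e-10).

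Slc16a8 encodes MCT3, the lactate carrier of the pigment epithelium, a tissue that lies behind the retina (chromosome 15, 79251014 to 79254761, minus strand). Its libraries held 0.724, 0.851 and 1.53 cpm in WSB/EiJ, 0.623, 0.878 and 0.975 cpm in 129S1/Svlmj, 0.510, 0.630 and 0.795 cpm in NOD/ShiLtJ, and 0.170, 0.712 and 0.965 cpm in A/J. They held 0.304, 0.384 and 0.656 cpm in C57BL/6J, 0.190, 0.361 and 0.460 cpm in NZO/HlLtJ, 0.206, 0.247 and 0.326 cpm in CAST/EiJ, and 0.138, 0.199 and 0.273 cpm in PWK/PhJ. All neighbours overlapped, and the A/J libraries alone spanned most of the range of the strain means. No single strain was called, but WSB/EiJ passed without its replicate 2 (0.57) or 3 (0.52). The limma F-test gave an adjusted p of 0.000930. With a mean of 0.546 cpm, Slc16a8 barely met the filter and did not meet it without the strain WSB/EiJ.

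The Slc16a8 level followed the summed pigment epithelium markers. That sum averaged 57.2 ± 15.0 cpm (SD, n = 3) in WSB/EiJ, 49.4 ± 11.9 cpm in A/J, 47.1 ± 6.39 cpm in 129S1/Svlmj and 40.0 ± 18.3 cpm in NOD/ShiLtJ. It averaged 31.7 ± 9.47 cpm in C57BL/6J, 17.5 ± 3.62 cpm in NZO/HlLtJ, 16.4 ± 4.77 cpm in PWK/PhJ and 13.96 ± 1.33 cpm in CAST/EiJ. Over the 8 strain means on the log2 scale, Pearson r was 0.933 (exact permutation p = 0.000893, two-sided) and Spearman's coefficient was 0.905 (exact p = 0.00456). Without PWK/PhJ and CAST/EiJ, the strains farthest from the median sum, r was 0.878. With the pigment genes Tyrp1, Pmel, Mlana, Tyr and Dct left out of the sum, r was 0.978 (exact p = 0.000124). Fewer cells of a type and less RNA per cell cannot be told apart in these libraries, and the part of adhering pigment epithelium in the strain differences of Slc16a8 was not tested.

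**Figure D3:**
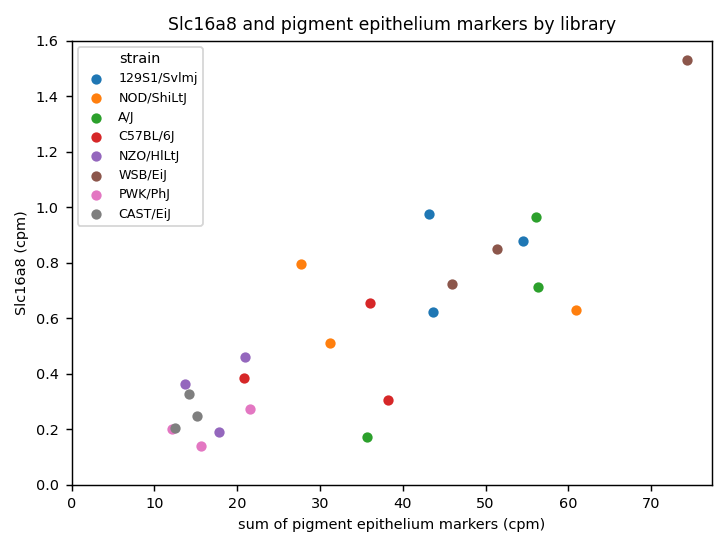
Slc16a8 level against the summed pigment epithelium markers, both in cpm, with 1 point per library coloured by strain. Over strain means on the log2 scale the Pearson r was 0.933.

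The relation to refraction was first fitted by limma over the 24 libraries, as a slope of log2(cpm + 1) per 10 diopters towards hyperopia. At q under 0.01 it called 2 of the 10 genes, beside 15.5% of all genes tested. Both were negative, Slc16a7 and Ldhb, beside 1641 negative and 901 positive calls (5.49%) among all genes. The median slope was -0.04 over the 10 genes and -0.0050 over all genes. The 3 libraries of a strain share 1 refraction value, so the strain is the independent unit, and with strain means as units limma called 0 of 16400 genes.

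Slc16a7 fell by 0.20 per 10 diopters (SE 0.0196, limma q = 8.4e-07), and its slope stayed negative under each alternative tried. Over the 8 strain means, Pearson r with refraction was -0.928 (exact permutation p = 0.00228, two-sided) and Spearman's coefficient was -0.976 (exact p = 0.000397). Among all genes 1559 had an exact p for r under 0.05, or 9.51%, and 1 of the 10 did, Slc16a7. Adjusted over the 16400 genes, the exact p of Slc16a7 was 0.492 for r and 0.307 for the Spearman coefficient, and 0 genes had an adjusted p for r under 0.05. Without 129S1/Svlmj and CAST/EiJ, the strains farthest from the median refraction, r was -0.964. Without the wild-derived strains the limma slope was -0.16 (q = 0.00778).

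Other measures moved in the same direction as Slc16a7. Of 8 marker sums related to refraction over the strain means, the Müller glia sum had r = -0.797 (exact p = 0.0177, adjusted over 8 p = 0.141; Spearman coefficient -0.881, exact p = 0.00724; r = -0.760 without the same pair of strains). The Müller glia sum averaged 1111 ± 81.6 cpm (SD, n = 3) in 129S1/Svlmj, 1206 ± 31.7 cpm in NOD/ShiLtJ and 893 ± 36.5 cpm in CAST/EiJ. Of its mean of 1018 cpm, Glul gave 609 cpm. Limma called the slopes of 4 of its 8 markers, all negative, while r was 0.239 for Rlbp1, -0.0235 for Aqp4 and -0.130 for Kcnj10. The blood cell sum had r = -0.722 (exact p = 0.0439, adjusted over 8 p = 0.155; Spearman coefficient -0.905, exact p = 0.00456; r = -0.796 without that pair), and averaged 28.4 ± 3.43 cpm in NOD/ShiLtJ and 12.3 ± 1.05 cpm in CAST/EiJ. The part of either in the Slc16a7 result was not tested. Measured within each library, the log2 ratio of Slc16a7 to Slc16a1 went from -2.82 ± 0.119 (SD, n = 3) in 129S1/Svlmj to -4.01 ± 0.0697 in CAST/EiJ. Its strain means had r = -0.952 with refraction (exact p = 0.000595, adjusted over the 4 ratios p = 0.00238) and a Spearman coefficient of -0.976 (exact p = 0.000397), with r = -0.974 without 129S1/Svlmj and CAST/EiJ. The ratio contains Slc16a7 and is therefore no separate measure of its trend, and its adjustment covers 4 ratios, not all genes.

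Ldhb fell by 0.13 per 10 diopters (SE 0.0304, limma q = 0.00212), a relation that rested on the strains at the ends of the range. Over the 8 strain means r was -0.665 (exact p = 0.0723, adjusted p = 0.525) and the Spearman coefficient was -0.595 (exact p = 0.132), and r was -0.145 without 129S1/Svlmj and CAST/EiJ. The limma call ended without 129S1/Svlmj (slope -0.08, q = 0.0778), without CAST/EiJ (slope -0.11, q = 0.0272) and with strain as a random effect (q = 0.0464). NOD/ShiLtJ, a myopic strain with low Ldhb, lay off the trend: without it r was -0.925 (exact p = 0.00357), and without its replicate 2 alone r was -0.714 (exact p = 0.0476). With Gm5514 added, the slope of Ldhb was -0.08 (limma q = 0.00202).

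Hk2 had the largest positive slope of the 10, 0.25 per 10 diopters (SE 0.0779), and missed the threshold with limma q = 0.0102. It passed without any 1 library of 129S1/Svlmj or WSB/EiJ (q from 0.00486 to 0.00900), and without the 129S1/Svlmj strain its slope was 0.51 (q = 9.2e-05). It also passed with median-ratio scaling of libraries (q = 0.00746), with ranks of refraction (q = 0.00251), without the WSB/EiJ strain (q = 0.00326) and without the libraries with lens transcripts (q = 0.00858), while without the wild-derived strains q was 0.554. Over strain means r was 0.549 (exact p = 0.159, adjusted p = 0.593) and the Spearman coefficient was 0.690 (exact p = 0.0694), and r was 0.719 without 129S1/Svlmj and CAST/EiJ. The log2 ratio of Hk2 to Hk1 had r = 0.414 (exact p = 0.304; Spearman coefficient 0.690, exact p = 0.0694; r 0.708 without that pair). Slc16a8 had a slope of -0.11 (limma q = 0.0205) and r = -0.605 (exact p = 0.112; Spearman coefficient -0.619, exact p = 0.115; r -0.345 without that pair), beside r = -0.697 for the pigment epithelium sum (exact p = 0.0583, adjusted over 8 p = 0.155; Spearman coefficient -0.571, exact p = 0.151; r -0.555 without that pair). Without WSB/EiJ replicate 1 the slope of Slc16a8 passed (-0.12, q = 0.00232) and its r was -0.747 (exact p = 0.0350), and without the whole WSB/EiJ strain r was -0.976 (exact p = 0.000595).

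The slopes of the remaining 6 genes did not pass. Slc2a3 (-0.05, limma q = 0.0483), Slc2a1 (-0.03, q = 0.235) and Ldha (-0.04, q = 0.181) had negative slopes, and Slc16a1 (0.04, q = 0.0476), Slc16a3 (0.03, q = 0.326) and Pkm (0.02, q = 0.287) positive ones. Leaving out a whole strain gave calls for Slc2a1 (slope -0.12, q = 0.00238, without 129S1/Svlmj), Slc2a3 (slope -0.08, q = 0.00587, without PWK/PhJ) and Slc16a1 (slope 0.05, q = 0.00818, without NZO/HlLtJ). Of the other ratios, Ldha to Ldhb had r = 0.380 (exact p = 0.352; Spearman coefficient 0.310, exact p = 0.462; r -0.315 without 129S1/Svlmj and CAST/EiJ) and Slc2a1 to Slc2a3 had r = 0.163 (exact p = 0.700; Spearman coefficient 0.143, exact p = 0.752; r -0.532 without them). Without the same pair r also changed sign for Slc2a3, from -0.488 to 0.265, and for Pkm, from 0.163 to -0.517.

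**Figure D4:**
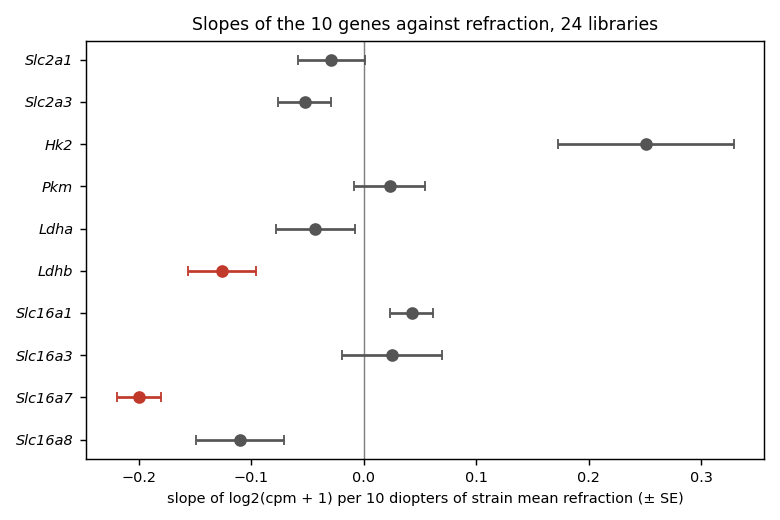
Slopes of log2(cpm + 1) per 10 diopters towards hyperopia for the 10 genes, with points for the limma estimates, bars for ± 1 SE and red for genes called at q under 0.01. Slc16a7 and Ldhb were called, at -0.20 and -0.13, and Hk2 at 0.25 was not.

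The wider pathway lists hold 74 genes, of which 59 were tested, and limma called 2 positive and 8 negative slopes, or 16.9%, beside the 15.5% of all genes. Among the 14 monocarboxylate transporters 12 were tested and 4 (33.3%) were called, all negative: Slc16a7, Slc16a12 (-0.21), Slc16a6 (-0.29) and Slc16a9 (-0.15). Slc16a6 lost its call when any 1 of 14 libraries was left out, namely any of A/J, NOD/ShiLtJ, PWK/PhJ or CAST/EiJ and C57BL/6J replicates 1 and 3 (q from 0.0101 to 0.0209), and without the wild-derived strains its slope was 0.16 and called in the other direction (q = 0.00838). Slc16a12 lost its call without the libraries with lens transcripts (-0.14, q = 0.0198), and held 2.35 cpm in such a library of 129S1/Svlmj against 0.423 and 1.40 cpm in the others, and 1.56 cpm in that of NOD/ShiLtJ against 0.381 and 0.600 cpm, while that of C57BL/6J held 0.960 cpm against 1.58 and 1.08 cpm. With strain as a random effect Slc16a7 passed, and Slc16a12 (q = 0.252), Slc16a9 (q = 0.124) and Slc16a6 (q = 0.0446) did not. Another list held Bsg, Emb, Nxnl1 and Nxnl2. Of these 4 genes, Nxnl2, a relative of rod-derived cone viability factor, had a called slope of 0.22. Bsg, the chaperone of several of these carriers, did not pass (-0.04, q = 0.0155). None of the 6 glucose transporters, 4 regulators of glycolytic flux or 12 genes of pyruvate entry to mitochondria that were tested was called. Of 3 lactate dehydrogenases Ldhb alone was called, and of 14 glycolytic enzymes after hexokinase 3 (21.4%) were: Eno2 (0.09), Gapdh (-0.66) and Eno1 (-0.56). With the values of close copies added, the slope of Gapdh was -0.18 (q = 0.0164) and that of Eno1 was -0.02 (q = 0.1999), and neither was called. Nxnl2 (q = 0.0149), Eno2 (q = 0.116) and Eno1 (q = 0.0133) also did not pass with strain as a random effect.

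Each gene was also set beside the genes whose log2 levels were most like its own over the 24 libraries, as a description. Genes like Slc16a7 included Upp2 (r = 0.923) and Adamts6 (0.917), and Slc16a8 was most like the pigment epithelium markers Stra6 (0.912), Ttr (0.909) and Rpe65 (0.865). Hk2 was most like Dusp26 (0.919), Fam3c (0.919) and Mast2 (0.916). Ldha was closest to Lbhd1 (0.916), then Pfkfb2 (0.910), which sets the level of an activator of phosphofructokinase, and Kdm3a (0.888), while Ldhb was closest to Npm1 (0.902), Mat2a (0.901) and Wtap (0.882). Pkm was most like the glycolytic enzyme Gpi1 (0.855), then Cul4a (0.852) and Med23 (0.848). For Slc16a1 the closest were Lrit1 (0.857), Pdlim3 (0.785) and Cops8 (0.782), and for Slc16a3 Zdhhc4 (0.864), Tpi-rs11 (0.839) and Clcn4 (0.835). Slc2a1 was most like Rplp0 (0.833), C1qa (0.824) and Gm45694 (0.822), and Slc2a3 most like Ccng2 (0.868), Gm9247 (0.845) and Adcy6 (0.838).

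Promoter sequence from RefSeq, on GRCm38.p6, was at hand for 8 of the 10 genes; Slc16a7 and Slc2a3 had no entry. The 250 bases before each start were searched on both strands for ACGTG and GCGTG, the core letters bound by hypoxia-inducible factors, where a CACGTG palindrome holds ACGTG on both strands and counts on each. Of the 10 windows of these genes 8 held a match, in 7 of the 8 genes, beside 38.6% of all 32851 windows, and a match describes letters only. Hk2 and Ldhb are shown because, among genes with an entry, they had the highest F over the strains. The Hk2 window held 2 matches and the Ldhb window 1, in capitals.
Hk2, chr6:82774455-82774704, minus strand: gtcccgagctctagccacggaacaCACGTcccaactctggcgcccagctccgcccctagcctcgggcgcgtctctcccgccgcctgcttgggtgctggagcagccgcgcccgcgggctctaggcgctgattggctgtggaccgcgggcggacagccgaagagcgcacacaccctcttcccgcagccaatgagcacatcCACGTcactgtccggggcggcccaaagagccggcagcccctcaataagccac
Ldhb, chr6:142507958-142508207, minus strand: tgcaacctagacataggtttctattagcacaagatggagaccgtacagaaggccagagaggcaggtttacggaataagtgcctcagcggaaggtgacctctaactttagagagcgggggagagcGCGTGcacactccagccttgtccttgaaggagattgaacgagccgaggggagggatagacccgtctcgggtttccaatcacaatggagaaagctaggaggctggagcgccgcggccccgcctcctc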

How the data were processed

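The authors trimmed the reads, aligned them with STAR to GRCm38/mm10, assigned them to genes with the E/M model of Partek Flow, and deposited cpm over all reads of a library, with a constant of 0.0001 added. All strains were aligned to 1 reference. The study's methods name RefSeq, while the deposited gene models are of the Ensembl type. Values were taken as log2(cpm + 1) for genes averaging 0.5 cpm or more and fitted with limma 3.58.1 in R 4.3.3, with moderated variances and a trend, over all genes, with Storey q under 0.01 and a size limit of 0.5 for single strains. Exact permutation tests over all 40320 orders of the 8 strains used Python 3.11.15 with SciPy 1.17.1 as a reference. The fits and exact tests were tested on simulated data. In the simulation of the fits, genes without a planted effect had no strain differences. It therefore cannot show how often the slope over 24 libraries is called falsely where strains differ. Pathway genes were named when called, up to 8, by size of the moderated statistic, with 3 most similar genes per gene. The genes and lists were chosen with earlier results of these data known. Alternatives changed the pseudocount, filter, scaling, adjustment, unit, phenotype scale, thresholds, and the strains and libraries used. After the data were seen, alternatives that add close copies and that leave out libraries with lens transcripts were added.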

Additional observations from a re-analysis of the deposited data

How the results depend on the processing

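The count of genes associated with refraction, 2, became 0 with strain means as units (0 of 16400 genes called; Slc16a7 q = 0.280), 1 with strain as a random effect (208 genes called), 1 without CAST/EiJ (1051), 1 without the wild-derived strains (333) and 6 at q under 0.05 (5224); without single libraries it ranged from 2 to 4, the 4 arising without WSB/EiJ replicate 1. Under the other alternatives it was 2 or 3. Slc16a7 kept its call in each alternative but strain means as units, while Ldhb lost it there, with strain as a random effect, without 129S1/Svlmj, without CAST/EiJ and without the wild-derived strains (q = 0.352). The calls in single strains, 7, became 11 with a pseudocount of 0.1 (Ldhb in 129S1/Svlmj, Slc16a8 in CAST/EiJ, PWK/PhJ and WSB/EiJ), 1 with a size limit of 1 (Hk2 in A/J), 5 with median-ratio scaling (Ldha and Slc16a3 in WSB/EiJ lost), and 6 without the libraries with lens transcripts (Slc16a3 lost) and with copies added (Ldha lost), and ranged from 6 to 9 without single libraries. By Storey q the F-test called 10 throughout, or 9 of 9 at a filter of 5 cpm, which Slc16a8 did not meet, and by Benjamini-Hochberg it called 9 without NZO/HlLtJ replicate 2 (Slc16a1 lost); without the libraries with lens transcripts its Storey estimate admitted all 16378 genes, so that the Benjamini-Hochberg count, 10, is the one to read there. The count at exact p under 0.05, 1, became 2 without each of 129S1/Svlmj (Hk2), NOD/ShiLtJ (Ldhb), NZO/HlLtJ (Slc16a1), WSB/EiJ (Slc16a8) and PWK/PhJ (Slc2a3), and was 1 to 2 without single libraries. The number of ratios related to refraction stayed at 1, and r of Slc16a8 with the pigment epithelium sum stayed between 0.873 and 0.978.

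Slopes that changed sign were those of Pkm (-0.016 without 129S1/Svlmj and -0.017 without CAST/EiJ), Slc2a1 (0.0061 without CAST/EiJ, 0.013 without the wild-derived strains), Slc16a3 (-0.017 without PWK/PhJ) and, without the wild-derived strains, Ldha (0.048), Slc16a1 (-0.0045), Gapdh (0.050), Eno1 (0.13) and Slc16a6 (0.16, q = 0.00838, called in the other direction). Besides the changes of sign without 129S1/Svlmj and CAST/EiJ together given above, the r with refraction changed sign for Pkm (-0.0852 without 129S1/Svlmj, -0.122 without CAST/EiJ), the ratio of Slc2a1 to Slc2a3 (-0.383 without 129S1/Svlmj), Slc16a3 (-0.0924 without PWK/PhJ) and Slc2a1 (0.0501 without CAST/EiJ, 0.0490 without the libraries with lens transcripts). Without single libraries it ranged from -0.0371 to 0.323 for Slc16a3, from -0.00759 to 0.280 for Slc2a1/Slc2a3 and from -0.400 to 0.0120 for Slc2a1, the changes of sign arising without 129S1/Svlmj replicate 1, 129S1/Svlmj replicate 1 and 129S1/Svlmj replicate 2. None of these genes was called before the change but Gapdh, Eno1 and Slc16a6. The cause was not tested. Of the 10 genes Slc16a8 lay nearest the limit of depth, with 0.138 cpm in its lowest library against 0.0384 to 0.0521 cpm for 3 reads.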

Other observations

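Gapdh and Eno1, glycolytic enzymes with close copies in the genome, had the widest strain ranges among the named pathway genes, and the ranges were smaller when these copies were counted with them. Gapdh averaged 12.2 cpm in WSB/EiJ, 14.1 cpm in PWK/PhJ and 18.5 cpm in CAST/EiJ, against 83.0 to 95.5 cpm in the other strains, a highest-to-lowest ratio of 7.84. With its 77 copies the sums were 87.9 ± 19.2 cpm (SD, n = 3) in WSB/EiJ, 141 ± 1.61 cpm in PWK/PhJ and 120.1 ± 10.99 cpm in CAST/EiJ, against 178 to 224 cpm elsewhere, a ratio of 2.55. Eno1 averaged 13.9 cpm in PWK/PhJ and 13.5 cpm in CAST/EiJ but 147 cpm in C57BL/6J, a ratio of 10.9. With its 3 copies it ranged from 418 ± 59.4 cpm in WSB/EiJ to 489 ± 23.6 cpm in NZO/HlLtJ, a ratio of 1.17. How reads of each strain were shared between a gene and its copies was not tested.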
